A study of Sparus aurata with 9 samples.

Results

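The 100 liver transcripts described here are those whose level differed most between pools of fish that had received the same treatment, while every array probe for the transcript gave the same pattern. They were taken from 15156 gilthead sea bream (Sparus aurata) sequences on the array, of which 6780 had 2 or more probes. In 2574 of these, here called the candidates, all probes were detected together on at least 1 array. Detected means that the scanner software called the spot well above its local background. A sequence counts as detected in a pool where all its probes were. Among the candidates, 438 (17.0%) had probes that correlated pairwise at r of 0.9 or more over the 9 arrays, and the 100 of these with the highest SD between pools within groups are the members. The level is the log2 of the processed spot signal relative to the array's 75th percentile, averaged over a sequence's probes, so that 0 marks the 75th percentile. Each probe has its own brightness, so levels are set against each other only within a sequence, never between sequences.

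Juvenile fish of about 50 g were held for 24 h in artificial seawater that contained gold nanoparticles (AuNP), at 0 µg/L (controls), 0.5 µg/L or 50 µg/L. Liver RNA of the 9 fish in each group was mixed by 3 fish, which gave 3 pools per group from 27 fish in all. The groups were kept in duplicate tanks, and tank and treatment cannot be told apart. The sample titles name no tank, so within a group a spread between tanks cannot be told apart from other spread between pools. All 9 pools came from fish of one source, kept and fed alike before the exposure, and no group differs in anything else that the labels name.

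A pool averages the RNA of its fish, so a high level in 1 pool can come from 1 fish or from all 3, and these cannot be told apart here. In whole liver RNA, a change in the number of cells of a type and a change in RNA per cell cannot be told apart either. The teleost liver makes most plasma proteins, stores and releases fuel and clears foreign compounds. In sea bream, exocrine pancreatic tissue runs through the organ along its vessels, so a liver sample can hold RNA of several cell types. The files pair no sequence with a gene name, and 0 of the 15156 sequence names were found in RefSeq's gene table for the assembly fSpaAur1.1. The labelled tissue could therefore not be checked against liver markers, and no function is given to any member. Their identifiers are those of assembled contigs (65 members) and of single complementary DNA clones (35 members).

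The SD between pools is the value that chose the members, and it is given as a description. It was 0.58 to 4.13 on the log2 scale (n = 3 pools in each of 3 groups), with a median of 0.88, against a median of 0.28 over the candidates and 0.34 over the 438 sequences with agreeing probes. In all, 275 candidates had an SD at least as high as the lowest member, and 175 of them were left out because their probes disagreed. The last members were Seabream_2006-01-03-CL4166Contig1, Contig2003 and cDN07P0005H22.F.ab1, with SDs of 0.586, 0.585 and 0.580. The first sequences outside were Contig190, Contig131 and Contig3549, at 0.580, 0.579 and 0.577. The edge of the list therefore falls in a run of nearly equal values and marks no step.

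The rule fixed that probes agree, and as a description the lowest pairwise r between probes had a median of 0.961 over the members, with 25 members at 0.98 or more. The rule did not set the agreement between repeat spots of 1 probe directly. It averaged those spots, however, and chose wide spread with agreeing probes, so high correlation between spots follows in part from the choice. It is given as a description, and was not computed for the candidates. Of the 302 member probes, 94 were printed as 2 spots. The 2 spots of a probe correlated over the 9 arrays with a median r of 0.969, and in 80 of the 94 probes r was 0.9 or more. The SD between such spots was 0.205 on the log2 scale in members and 0.136 in candidates. The scanner software marked 27 of 4194 member spots as outliers and none as saturated. Most members had 3 probes (94), with 4 probes in 4 members and 2 probes in 2.

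**Figure D1:**
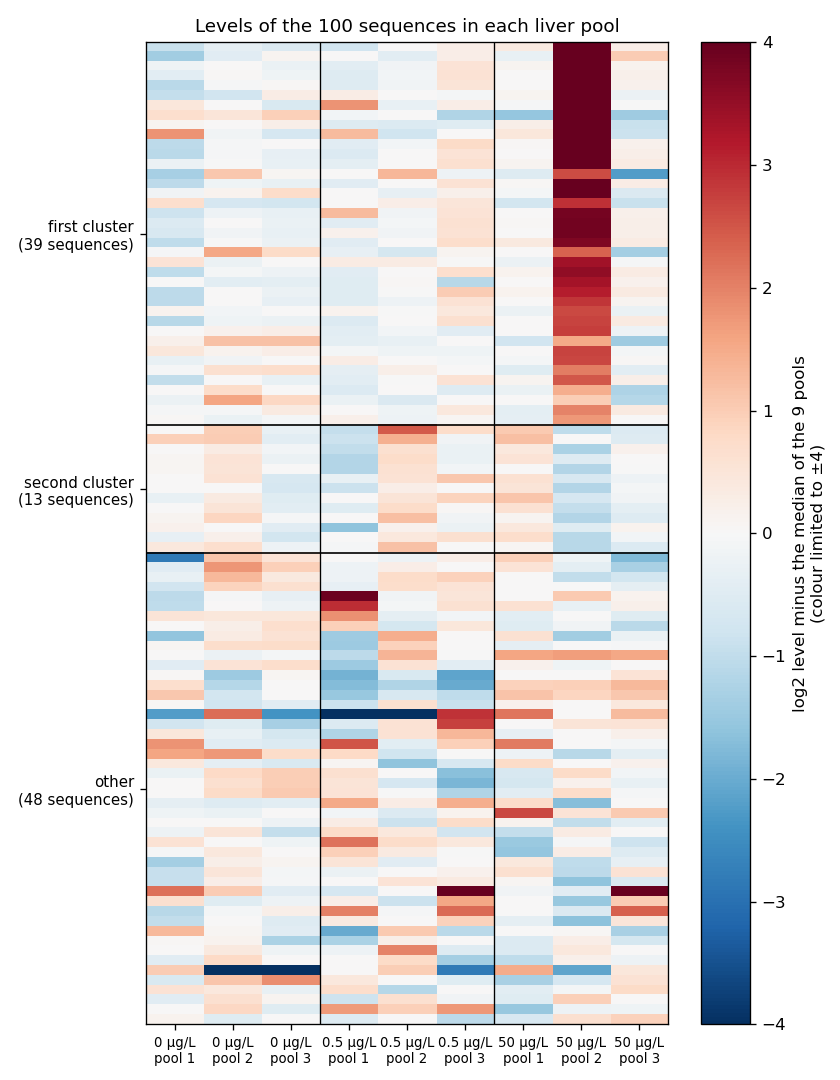
Levels of the 100 sequences (one line each) in the 9 liver pools (columns, by AuNP concentration), as log2 level minus the sequence's median over the 9 pools, with colours limited to 4 either way. The 39 sequences at the top form the first cluster and stand high in pool 2 at 50 µg/L, the next 13 form the second, and the other 48 show mixed patterns.

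One pool held the highest level of 41 of the 100 members: pool 2 at 50 µg/L. In the other 8 pools this count was 1 to 13. Of the candidates, 10.2% had their highest level in that pool. A level at least 2-fold above every other pool was found for 35 members in pool 2 at 50 µg/L and for 0 to 4 members in each other pool. Where a sequence was not detected in another pool, that pool's level is known only as a bound. The bound is the lowest level among that array's detected probes, or the sequence's own level where that is higher. With such levels raised to that bound, 29 members were at least 2-fold above every other pool in pool 2 at 50 µg/L, against 0 to 3 in each other pool. The same count over the 2574 candidates was 77 for pool 2 at 50 µg/L, against 2 to 10 for the other pools, without the bound. The 77 include the 35 members. Of the candidates, 70 met the rule on detection through this pool alone, 20 of them members. These counts thus follow in part from the choice, and no conclusion is drawn from them.

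The spread was highest at 50 µg/L for 55 members, at 0.5 µg/L for 35 and in the controls for 10. The median member's SD between pools was 0.52 in controls, 0.60 in the 0.5 µg/L pools, and 1.03 in the 50 µg/L pools (n = 3 pools each), while the median candidate's was 0.22, 0.25 and 0.27. Without pool 1, 2 or 3 at 50 µg/L, the members' median in that group was 0.89, 0.37 or 1.19. Without control pool 1, 2 or 3 the median of the controls was 0.25, 0.49 or 0.53. At 0.5 µg/L it was 0.49, 0.62 or 0.50 without pool 1, 2 or 3. The members were chosen for a high SD, so a fall without an extreme pool follows from the choice. The candidates' medians without a pool were not computed. Undetected levels also enter these SDs. In controls 24 members were detected in no pool, at 0.5 µg/L 30 and at 50 µg/L 7. With every level below -0.18, the highest of the arrays' bounds, raised to it, the members' medians were 0.25, 0.28 and 0.66 in the 3 groups. The members' median SD over the groups was then 0.66, against 0.88 without the bound. In 23 members over 90% of the within-group variance lay in the 50 µg/L group, against 3 members for 0.5 µg/L and 0 for controls. These counts of members by group describe the SDs that chose them, and they were not made for the candidates.

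Lowest levels were less gathered in 1 pool. Control pool 1 held the lowest level of 24 members, pool 1 at 0.5 µg/L and pool 2 at 50 µg/L of 16 each, and control pool 2 of 0. Lowest levels were not counted over the candidates, so these counts have no share to be set against. In 16 of the 24 cases in control pool 1 no probe of the sequence was detected there, and the bound was lowest on that array, at -1.94, against -1.33 to -0.18 on the others. An order among undetected levels was therefore not read.

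**Figure D2:**
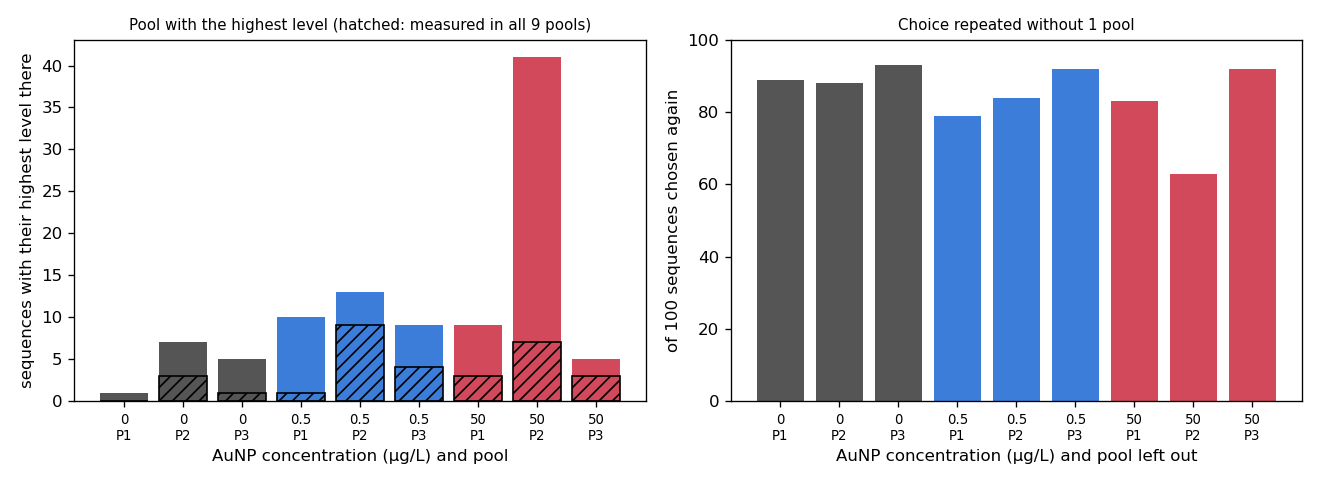
Left, number of the 100 sequences with their highest level in each pool (hatched, those detected in all 9 pools), with pool 2 at 50 µg/L at 41. Right, how many of the 100 were chosen again when the choice was repeated without the pool named under the bar, lowest at 63 without pool 2 at 50 µg/L. The lower count without that pool follows in part from the choice.

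Detection splits the members into 3 kinds. In 31 members all probes were detected in all 9 pools, and their highest level was 2.91 to 28.7-fold above their lowest, with a median of 4.90-fold. A further 45 were detected in 2 to 8 pools. The remaining 24 were detected in a single pool, which was pool 2 at 50 µg/L for 20 of them. Among the candidates 452 were detected in a single pool, pool 2 at 50 µg/L for 70 of these. In the 24 members the highest over the lowest level was at least 1.92-fold to at least 1099-fold. Of the candidates, 47.5% were detected in all 9 pools. Among the 31 members with a level in every pool, pool 2 at 0.5 µg/L was the highest for 9, pool 2 at 50 µg/L for 7 and each other pool for 0 to 4. The lowest level of these 31 lay in pool 2 at 50 µg/L for 10 and in each other pool for 0 to 6. By contrast, 20 of the 41 members highest in pool 2 at 50 µg/L had all probes detected in no other pool. For 14 of these 20, no probe was detected in any other pool, and the rest had some probes detected elsewhere. Counts by pool over the candidates detected in all 9 pools were not made.

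The members were grouped by the likeness of their deviations from the group means over the 9 pools (average linkage on 1 minus Pearson r, with joining stopped at 0.3). This describes the values that chose the members and is no test. The first cluster held 39 members, the second 13, while 42 lay in 14 clusters of 2 to 4 and 6 stood alone. Within the first cluster the median pairwise r was 0.92, and all 39 were above their group mean in pool 2 at 50 µg/L. That pool held the highest level of 38 of the 39. All probes of each were detected there, for 20 of them in no other pool and for 6 in all 9. With undetected levels at their bound, 29 of the 39 were at least 2-fold and 7 at least 10-fold above every other pool, with a median of 4.13-fold. The cluster held 23 contigs and 16 clones.

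The member with the highest SD in the first cluster was the clone cDN03P0003F23.F.ab1. Its level was -3.48, -2.94 and -3.16 in control pools 1 to 3, -3.37, -2.59 and -2.32 in the 0.5 µg/L pools, and -2.24, 8.16 and -2.32 in the 50 µg/L pools. No probe was detected outside pool 2 at 50 µg/L, where it was at least 323-fold above every other pool. Mackenzie-051508-Contig483 followed, with -3.92, -2.97 and -2.43 in controls, -2.52, -2.94 and -2.27 in the 0.5 µg/L pools, and -2.82, 7.33 and -1.52 in the 50 µg/L pools. Its level in pool 2 at 50 µg/L was at least 178-fold above every other pool, and some but not all of its probes were detected in pool 3 of the same group. In both sequences 1 of the 3 pools at 50 µg/L stood far above all 8 other pools.

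A further 5 of the 10 members with the highest SD had the same form. Clone cDN11P0005I23.F.ab1 reached 5.47 in pool 2 at 50 µg/L, at least 50.1-fold above every other pool, and SCT1076_C07_JP12_3C7_030.ab1 reached 5.03, at least 36.9-fold. Seabream_2006-01-03-CL3594Contig1 reached 4.35 there, at least 23.1-fold. No probe of these 3 was detected in any other pool. Contig3580 was at 4.90 in pool 2 at 50 µg/L, at least 33.7-fold above every other pool, and was also detected in control pool 3 at -0.41 and in pool 1 at 0.5 µg/L at -0.38. Clone cDN09P0004B24.F.ab1 was at 2.60 in pool 2 at 50 µg/L, at least 6.86-fold above every other pool, and was also detected in pool 1 at 0.5 µg/L at -0.88. In all 5, not all probes were detected in pools 1 and 3 at 50 µg/L.

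The first cluster held 6 members with a detected level in every pool. One of them, Seabream_2006-01-03-CL615Contig1, named after its values were seen, was detected in all 9 pools and had the widest range of the 31 such members. Its level was 3.40, 5.83 and 4.84 in controls, 4.74, 6.08 and 4.54 in the 0.5 µg/L pools, and 4.22, 7.34 and 2.50 in the 50 µg/L pools. Pool 2 at 50 µg/L stood 2.40-fold above the next pool and 28.7-fold above pool 3 of its own group, which was the lowest of all. Its probes correlated pairwise at 0.999 or more.

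**Figure D3:**
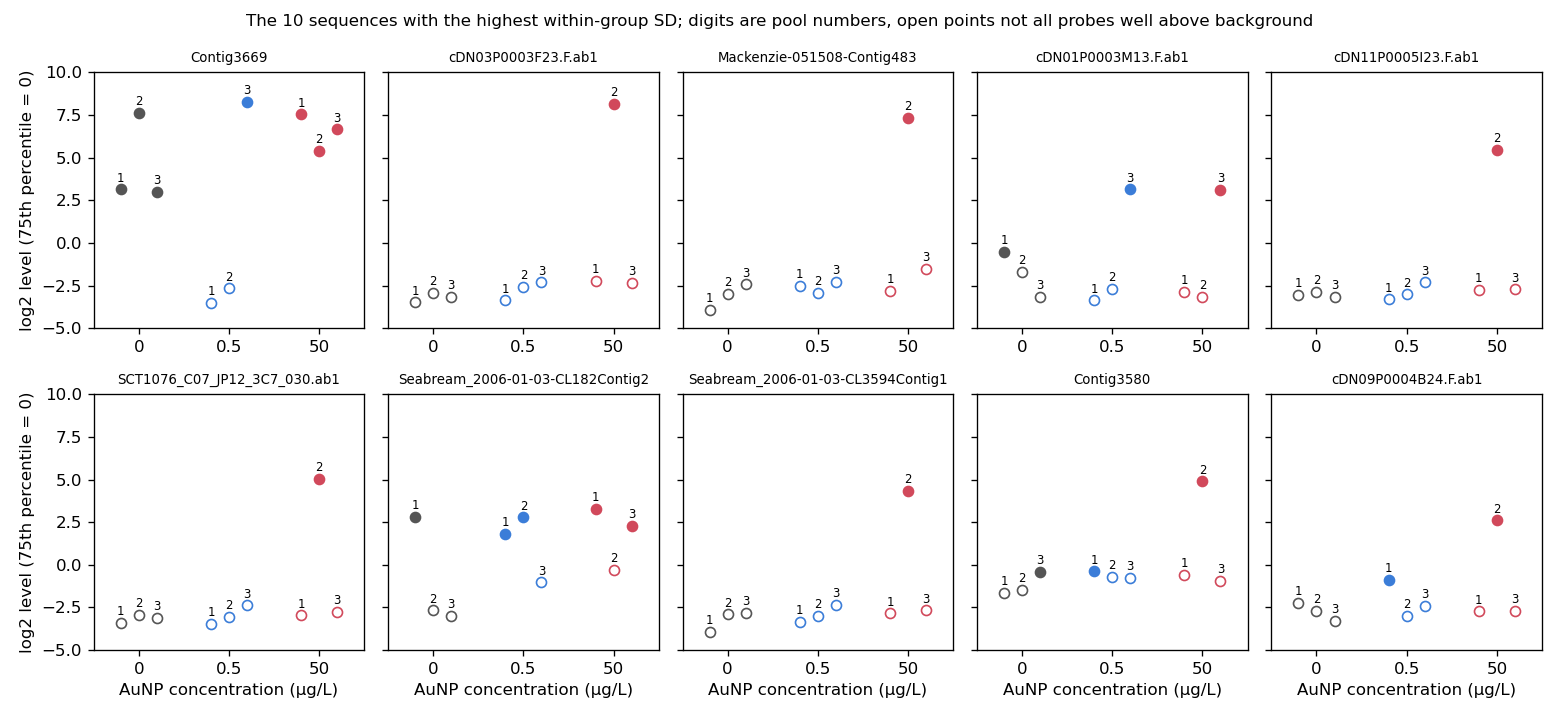
Log2 level of the 10 sequences with the highest within-group SD in each of the 9 pools (digits, pool numbers), by AuNP concentration. Filled points had all probes detected and open points did not, and 7 of the 10 sequences stand high in pool 2 at 50 µg/L only.

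Among the remaining 3 of the 10, the high and low pools fell otherwise. Contig3669 had the highest SD of all members, 4.13. Its level was 3.14, 7.62 and 2.98 in controls, -3.51, -2.66 and 8.26 in the 0.5 µg/L pools, and 7.53, 5.38 and 6.66 in the 50 µg/L pools. No probe was detected in pools 1 and 2 at 0.5 µg/L, while pool 3 of that group was the highest of the 9, at least 772-fold above the lowest. The 3 groups overlapped, and the 50 µg/L pools lay within the range of the controls and the 0.5 µg/L pools. All probe pairs of this contig correlated at 0.999 or more.

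The clone cDN01P0003M13.F.ab1 was high in pool 3 of both exposed groups. Its level was -0.52, -1.69 and -3.15 in controls, -3.37, -2.71 and 3.15 in the 0.5 µg/L pools, and -2.85, -3.16 and 3.10 in the 50 µg/L pools. All its probes were detected in those 2 pools and in control pool 1 only. Seabream_2006-01-03-CL182Contig2 was at 2.81, -2.67 and -3.00 in controls, 1.80, 2.78 and -1.02 in the 0.5 µg/L pools, and 3.29, -0.31 and 2.27 in the 50 µg/L pools. Its 5 pools with all probes detected lay at 1.80 to 3.29, and the other 4 at -0.31 or lower, with pools of every group on both sides.

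The second cluster held 13 members, 11 contigs and 2 clones, with a median pairwise r of 0.84. All 13 were above their group mean in control pool 2, pool 2 at 0.5 µg/L and pool 1 at 50 µg/L. All 13 were below it in control pool 3, pool 1 at 0.5 µg/L and pool 2 at 50 µg/L. The last of these pools, which stood high in the first cluster, held the lowest level of 8 of the 13. Their range over the 9 pools was 3.20 to at least 6.15-fold, and 7 of them were detected in all 9 pools.

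The members with the highest SD in the second cluster were Contig442 and Contig2675. Contig442 was at -1.15, -0.16 and -1.45 in controls, -2.12, 1.29 and -0.43 in the 0.5 µg/L pools, and -0.09, -2.16 and -1.70 in the 50 µg/L pools, and was detected in 1 pool of each group. Contig2675 was detected in all 9 pools, with 4.85, 4.93 and 3.47 in controls, 3.06, 5.34 and 3.76 in the 0.5 µg/L pools, and 5.11, 3.91 and 3.41 in the 50 µg/L pools. Its highest pool stood 4.87-fold above its lowest, both of them in the 0.5 µg/L group. The 3 groups overlapped for both contigs.

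Outside the first cluster, pairs of members that moved alike included Contig61 and Contig2692, named after their values were seen, whose levels correlated at 0.993 over the 9 pools. Contig61 was at 0.49, 1.54 and 1.75 in controls, 1.39, 0.75 and -0.92 in the 0.5 µg/L pools, and 0.11, 1.53 and 0.65 in the 50 µg/L pools. Contig2692 was at 0.85, 1.61 and 1.90 in controls, 1.40, 0.85 and -0.34 in the 0.5 µg/L pools, and 0.44, 1.60 and 0.81 in the 50 µg/L pools. Both were highest in control pool 3 and lowest in pool 3 at 0.5 µg/L. Whether the 2 contigs come from 1 transcript was not tested, since probe sequences were not used here.

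The identifiers show where the member sequences came from. Contigs made up 65% of the members and 62.9% of the candidates. Clones with the prefix cDN11 made up 8% of the members against 3.15% of the candidates, and cDN09 clones 7% against 2.87%. Contigs with the prefix Mackenzie made up 4% against 1.17%, while cDN02 clones went the other way, at 1% against 3.61%. Among the sequences with agreeing probes, from which the members were taken, contigs made up 67.4%, cDN11 clones 4.34% and cDN09 clones 5.25%. Among the 41 members with their highest level in pool 2 at 50 µg/L, 6 were cDN11 and 4 were cDN09 clones. The same counts were not made for the candidates. What the prefixes stand for is not given in the sources used here.

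Several measures of the arrays were set beside pool 2 at 50 µg/L. All probes were detected there for 83 members, 20 of which met the rule on detection through this pool alone, and for 41 to 71 members in each of the other 8 pools. The share of candidates detected was 72.5% in this pool and 51.9% to 93.2% in the others. The log2 75th percentile minus the mean of 6 spike-in RNAs, which were added to each sample before labelling, was -4.95 in this pool. It was -4.84 and -4.78 in the other pools at 50 µg/L, -5.65 to -5.34 at 0.5 µg/L and -5.63 to -4.80 in controls. Scaling to the spike-ins in place of the 75th percentile left 44 of the members highest in pool 2 at 50 µg/L. The count was 40 with normexp background correction and 40 with quantile normalization. It was 20 with the deposited values, where empty cells left some members without a level in some pools. Each slide held 1 array of each group, so this pool shared its slide with pool 2 at 0.5 µg/L and with control pool 2. Positions 1, 2 and 3 on every slide held the control, 0.5 and 50 µg/L arrays, and thus group and position cannot be told apart.

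When the choice was repeated without pool 2 at 50 µg/L, 63 of the 100 members were chosen again. Leaving out any other pool kept 79 to 93. The larger loss without this pool follows in part from how the members were chosen, and no conclusion is drawn from it. The highest levels of the 100 sequences listed without it were then spread over all 8 pools, with 5 to 19 in each. By the same rule, the median SD of the 100 sequences listed was then 0.62.

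The design sets both concentrations against the controls and against each other. One limma fit over all 9 arrays tested 5505 sequences, all those whose probes were detected together on at least 1 array, with Benjamini-Hochberg adjustment over all of them and a threshold of 0.05. The SD between pools that chose the members is also the denominator of this test, and a higher SD makes the test harder to pass. Their median standard error was 0.60 on the log2 scale, against 0.25 over all tested sequences. The 2 comparisons with the controls share the control pools, and the 3 comparisons share groups in pairs. The smallest p-values named below were picked from 100 members each.

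Between 50 µg/L and the controls, limma called 0 of 5505 sequences (0%), and 0 members. At an unadjusted p under 0.05 there were 8 of 100 members, 6 higher and 2 lower at 50 µg/L, and 11.1% of all tested sequences. This count was not stable: it was 30 without pool 1 at 50 µg/L (12.6% of all tested) and 21 without pool 3 at 50 µg/L (9.75%), while leaving out any other pool gave 4 to 14. Scaling to the spike-ins gave 28 members, 27 higher and 1 lower, with 12.4% of all tested, 661 higher and 21 lower. The median difference of the members was 0.18 on the log2 scale, against -0.08 over all tested sequences. Over the 84 members that could be tested with the deposited values it was -0.01. It was -0.10 over the 57 members detected on all 3 arrays of a group and -0.15 over the 31 detected on all 9 arrays. Over all members it was 0.37 without control pool 2, and 0.64 with the spike-ins, which put all tested sequences at 0.38. Within slides 1, 2 and 3 the members' median was 0.25, 0.33 and 0.22.

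The contig with the smallest p among members higher at 50 µg/L was Seabream_2006-01-03-CL1722Contig1, detected in all 9 pools. Its level was 7.42, 7.54 and 7.38 in the 50 µg/L pools and 5.85, 5.60 and 5.78 in the controls. These 2 groups did not overlap, while the 0.5 µg/L pools were at 4.79, 7.20 and 5.83. The mean was 7.45 ± 0.08 in the 50 µg/L pools and 5.75 ± 0.13 in the control pools (n = 3 each, SD), a log2 difference of 1.70 with a standard error of 0.49 and a limma adjusted p of 0.385. The spread of 1.21 at 0.5 µg/L entered that standard error, since the fit pools the 3 groups.

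Contig2768 followed, also detected in all 9 pools. Its level was 4.74, 2.66 and 3.18 in the 50 µg/L pools and 1.93, 1.84 and 2.11 in the controls, and the groups did not overlap. The log2 difference was 1.57 with a standard error of 0.46 and a limma adjusted p of 0.385.

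Of the members lower at 50 µg/L, Contig2822 had the smallest p. It was at -2.29, -3.18 and -2.45 at 50 µg/L, where no probe was detected, and at -0.48, -0.32 and -1.34 in controls. The log2 difference was -1.93 with a standard error of 0.44 and a limma adjusted p of 0.340. All probes were detected in 1 control pool and some in the other 2. Set against the bound, it was at least 1.07-fold lower at 50 µg/L, so the size of the difference is largely unmeasured. Contig1854, detected in all 9 pools, was at 3.25, 2.26 and 2.50 in the 50 µg/L pools and at 2.95, 4.55 and 3.64 in the controls, with overlapping groups. Its log2 difference was -1.05 with a standard error of 0.45 and a limma adjusted p of 0.438.

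Between 0.5 µg/L and the controls, limma again called 0 of 5505 sequences (0%), and 0 members. At an unadjusted p under 0.05 there were 7 of 100 members, 4 higher and 3 lower at 0.5 µg/L, beside 5.36% of all tested sequences. Leaving out 1 pool gave 3 to 14 members, and scaling to the spike-ins 14, with 2.89% of all tested. The median difference of the members was 0.14 on the log2 scale, against -0.02 over all tested sequences. Its direction did not hold: over all members it was -0.03 with normexp background correction, 0.00 with the spike-ins and 0.05 without pool 3 at 0.5 µg/L. It was -0.02 over the 80 members that could be tested with the deposited values. Over the 57 members detected on all 3 arrays of a group it was -0.02, and over the 31 detected on all 9 arrays -0.01. Within slides 1, 2 and 3 the members' median was 0.09, -0.01 and 0.19.

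SCT849_H04_JP3_4H4_009.ab1 was at 1.37, 0.61 and 1.40 in the 0.5 µg/L pools and at -0.34, 0.49 and -0.83 in the controls. The groups did not overlap, and the log2 difference was 1.35 with a standard error of 0.45 and a limma adjusted p of 0.859. SCT936_H10_JP6_1_H10_066.ab1 was at 2.22, 0.98 and 2.15 in the 0.5 µg/L pools and at 0.34, 0.18 and 0.27 in the controls, again without overlap. Its log2 difference was 1.52 with a standard error of 0.57 and a limma adjusted p of 0.870. The spread of this clone was 1.25 at 50 µg/L and 0.08 in controls.

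In the other direction, Contig2822 was at -1.28, -2.88 and -2.07 at 0.5 µg/L, beside the control levels given above, a log2 difference of -1.36 with a standard error of 0.44 and a limma adjusted p of 0.859. No probe of it was detected in pools 2 and 3 at 0.5 µg/L, and some but not all were in pool 1. The size of this difference is therefore largely unmeasured too. Seabream_2006-01-03-CL5047Contig1 was at -2.15, -1.63 and -2.43 at 0.5 µg/L, where no probe was detected, and at 0.26, -1.56 and -0.42 in controls. Its log2 difference was -1.50 with a standard error of 0.42 and a limma adjusted p of 0.859. No probe was detected in control pool 2 either, so no bound on the fold is given.

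Between 50 and 0.5 µg/L, limma called 18 of 5505 sequences (0.327%), 16 higher and 2 lower at 50 µg/L, and 1 of them was a member. At an unadjusted p under 0.05 there were 12 of 100 members, 6 in each direction, beside 17.8% of all tested sequences. Leaving out 1 pool gave 9 to 20 members. Scaling to the spike-ins gave 40, 38 higher and 2 lower, with 24.3% of all tested, 1329 higher and 11 lower. The median difference of the members was 0.29 on the log2 scale, against -0.08 over all tested sequences, and was -0.03 without pool 2 at 50 µg/L. Under the other alternatives, some of which tested fewer members, it was 0.04 to 0.89. Within slides 1, 2 and 3 it was 0.33, 0.62 and -0.34. Pool 2 at 50 µg/L held the highest level of 41 members, so a lower median without it follows from how they were chosen. No conclusion is drawn from that fall.

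The member that passed was Seabream_2006-01-03-CL5047Contig1, which rose at 50 µg/L relative to 0.5 µg/L. Its level was 0.50, 0.54 and 0.86 at 50 µg/L, with all probes detected in each pool, and -2.15, -1.63 and -2.43 at 0.5 µg/L, with no probe detected in any. The mean was 0.64 ± 0.20 in the 50 µg/L pools and -2.07 ± 0.41 in the 0.5 µg/L pools (n = 3 each, SD), a log2 difference of 2.71 with a standard error of 0.42 and a limma adjusted p of 0.0412. Since the 0.5 µg/L level is only bounded, the contig was at least 2.67-fold higher at 50 µg/L. The fit, and so the call, used the undetected levels as they stood, as did the differences within slides. Within slides the difference was 2.65, 2.17 and 3.30. The controls were at 0.26, -1.56 and -0.42, below the 50 µg/L pools, with no probe detected in control pool 2, and had the highest SD of the 3 groups, 0.92.

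The call was near the threshold. With the pool number, which is also the slide, as a replicate block the limma adjusted p was 0.121, and a random slide effect gave 0.0569. Over 23 alternatives the contig was called in 10, with adjusted p of 0.0133 to 0.167 and log2 differences of 1.17 to 3.36, all higher at 50 µg/L. The call was lost without control pool 3 and without any 1 of the 6 exposed pools.

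Next came Contig2003, at 1.97, 1.68 and 1.92 at 50 µg/L and at -0.67, 0.19 and -0.17 at 0.5 µg/L. The groups did not overlap, and the log2 difference was 2.08 with a standard error of 0.41 and a limma adjusted p of 0.0775. Some but not all of its probes were detected in each pool at 0.5 µg/L. Of the members lower at 50 µg/L, SCT849_H04_JP3_4H4_009.ab1 was at -1.87, -0.55 and -0.51 in the 50 µg/L pools and at 1.37, 0.61 and 1.40 in the 0.5 µg/L pools. The groups did not overlap, and the log2 difference was -2.10 with a standard error of 0.45 and a limma adjusted p of 0.0932. The clone cDN01P0002K04.F.ab1 was at -1.93, -0.48 and -1.27 in the 50 µg/L pools and at 1.74, 0.28 and -0.0046 in the 0.5 µg/L pools, with a log2 difference of -1.90, a standard error of 0.50 and a limma adjusted p of 0.123. Neither clone had all probes detected in any pool at 50 µg/L, and no probe of either was detected in pool 1 there. The sizes of both differences thus rest in part on undetected levels.

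**Figure D4:**
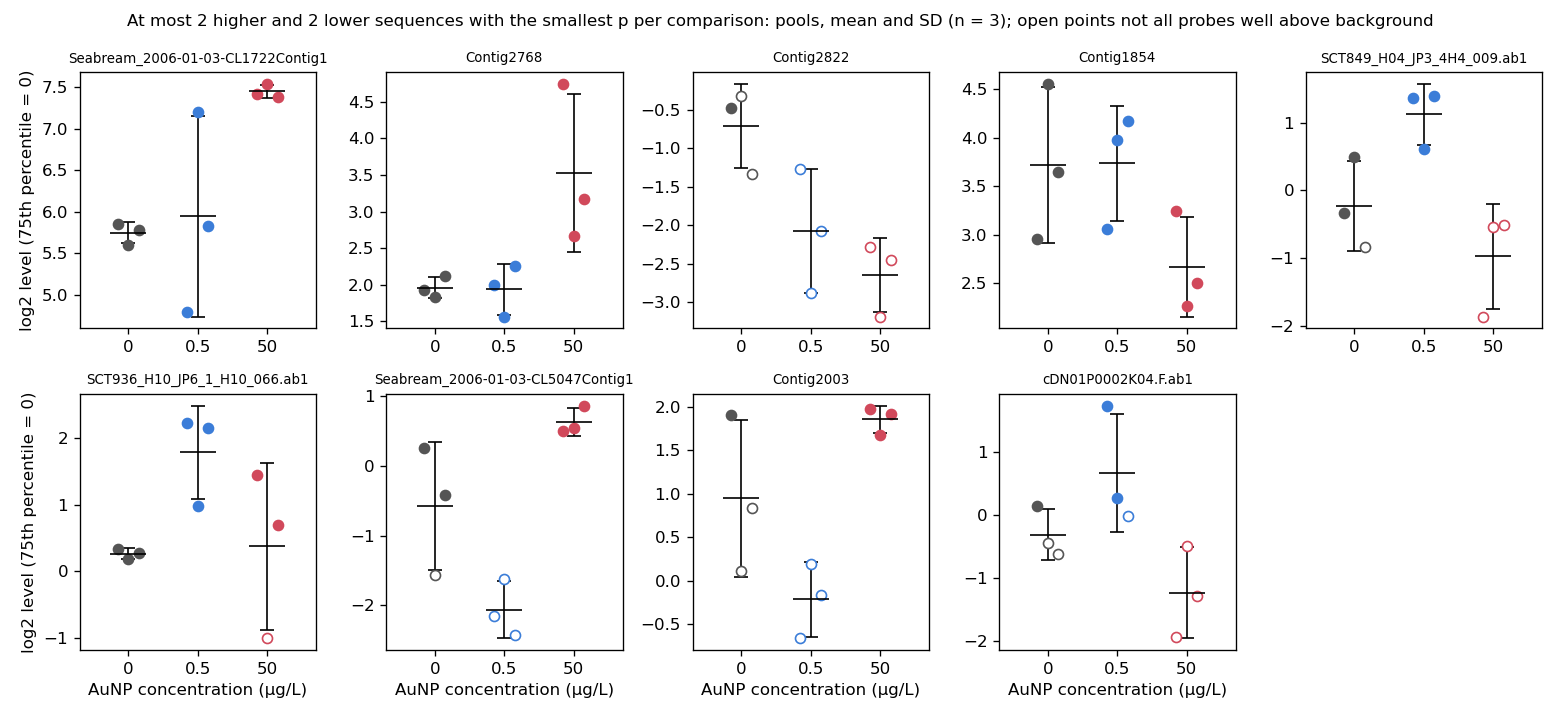
Log2 levels of 9 sequences, at most 2 higher and 2 lower with the smallest p in each of the 3 comparisons, by AuNP concentration, with pools 1 to 3 from left to right, the mean and the SD (n = 3); filled points had all probes detected. Seabream_2006-01-03-CL5047Contig1, the member called between 50 and 0.5 µg/L, lay at 0.50 to 0.86 at 50 µg/L and at -2.43 to -1.63 at 0.5 µg/L.

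The first cluster shows how such spread enters a group mean. For cDN03P0003F23.F.ab1 the mean level was 1.20 ± 6.03 in the 50 µg/L pools and -3.19 ± 0.27 in the control pools (n = 3 each, SD), a difference carried by pool 2 alone. No member of the first cluster was called in any of the 3 comparisons, and the high SD that chose them makes a call harder.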

How the data were processed

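Liver RNA of the 9 pools was labelled with Cy3 and hybridised to 1 Agilent array each. The scanner files, written by Agilent Feature Extraction 10.7.3.1 per the file headers, give linear intensity per spot, including a processed signal from which the authors' software had subtracted background. The authors' deposited value table holds log2 values and served as an alternative. Its entries equalled the log2 background-subtracted signal of the scanner files within 5e-09, uncentred and unscaled, so its scale, centring and direction are known, with medians of 7.00, 6.58 and 6.55 (controls), 7.01, 6.69 and 7.04 (0.5 µg/L) and 7.33, 7.16 and 6.97 (50 µg/L). Leaving out control spots kept 43803 of 45220 spots and 28793 probes. The log2 processed signal minus each array's 75th percentile was averaged over the spots of a probe, outlier flags included, and then over the probes of a sequence.

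A probe counted as detected where all its spots were well above background. Where no probe of a sequence was detected in a pool or group, a fold is given as at least the brighter level over the higher, per array, of the sequence's own level and the lowest level among detected probes. Comparisons came from limma 3.58.1 (R 4.3.3, lmFit and eBayes) with group means only. Clusters and summaries used Python 3.11.15 with numpy 2.4.6, scipy 1.17.1 and pandas 2.3.3. The fit was checked on simulated data.

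The members and lists were chosen with earlier results of these data known. Named sequences are the 10 members with the highest SD, the 2 highest of each cluster of 5 or more, the 3 on either side of the edge of the list, and at most 2 higher and 2 lower per comparison by adjusted p. Lists of liver, pancreas, blood, oestrogen-responsive and metabolic genes could not be applied without gene names. P-values measure the spread between pools, which are not known to be separate exposures and may differ for technical reasons. The number of arrays limits the precision. Alternatives were normexp background correction on the median spot signal (offset 50), other normalizations, detection filters, blocks, variance models and array weights. Each array was also left out, and other rules for members were used. A further 2 were added after seeing the data: levels below the highest of the arrays' bounds, -0.18, raised to it, and counts without pool 2 at 50 µg/L.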

Additional observations from a re-analysis of the deposited data

How the results depend on the processing

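Of 675 values recomputed under an alternative, 571 stayed on their side of the threshold or, for counts and untested values, near their size. The sign was followed only for the sequences named for the smallest p in a comparison, and in that comparison none changed it. The members' median difference changed sign in each of the 3 comparisons, as given with those comparisons. Between 50 µg/L and controls it did so only where fewer members were tested. When the choice of members was repeated, normexp kept 55 of the 100, the deposited values 63, and detection on all 3 arrays of a group 57. No minimum probe correlation kept 47. Raising every level below -0.18, the highest of the arrays' bounds, to that value was an addition made after seeing the data, and kept 66. Leaving out 1 pool kept 63 to 93, the lowest without pool 2 at 50 µg/L, in part because of how the members were chosen. Calls over all sequences ranged over 0 to 1 between 50 µg/L and controls, and over 0 to 2 between 0.5 µg/L and controls, when 1 pool was left out, and no member was called. Between 50 and 0.5 µg/L, 18 sequences and 1 member were called. Leaving out 1 pool gave 0 to 21 sequences and 0 to 2 members. Calls fell to 0 sequences and 0 members with normexp, with no detection filter, with detection by any spot, and with a random slide effect. Quantile normalization called 33 sequences, median centring 89 with 2 members, and omission of outlier spots 29. Scaling to the spike-ins called 67 sequences, 67 higher and 0 lower, with 3 members, beside 16 higher and 2 lower with the 75th percentile. It moved the median difference of all sequences to 0.52, against -0.08 with the 75th percentile. Detection on all 3 arrays of a group called 119 and 3 members, detection on all 9 arrays 57 and 0 members, the 2 groups fitted alone 6, a trended robust variance model 52 with 2 members, and array weights 104 with 2 members. The deposited values called 0 of the 83 members that could be tested with them. The cause of these differences was not tested.

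Pool numbers coincide with slides and do not pair fish. The deviations of same-numbered pools from their group means correlated at -0.13 to 0.08 over all tested sequences and at -0.26 to 0.15 over the members. For pools of different number the correlations were -0.12 to 0.14 and -0.39 to 0.50. With the pool number as a replicate block, 0 sequences and 0 members were called between 50 and 0.5 µg/L.

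With 3 pools per group, an SD rests on few values, and levels of undetected sequences are bounds only. The largest cluster held 37 and 39 members when joining stopped at 0.2 and 0.5.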
